A study of Rattus norvegicus with 60 samples.

Results

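The popliteal lymph node on the side away from a joint bleed was compared, gene by gene, with the node of sham rats. The comparison used every array labelled as a contralateral node (11) and every array labelled as a sham node (9), or 20 of the 60 arrays of a study of acute joint bleeding in rats with haemophilia A. In this disease blood clots poorly for want of factor VIII. The contralateral nodes were right popliteal nodes of 11 rats, K1 to K11, in which a bleed had been induced in the left knee. The sham nodes were right popliteal nodes of 9 other rats, C1 to C9, which had undergone a sham procedure. Tissue was taken 24 h after the procedure in both groups. All rats carried the disease, so no rat with normal clotting stands behind any value. The sources used here give no sex, age, strain or hour of day of tissue collection. The left nodes on the bled side (11) and the right knees of the same rats (11 contralateral and 7 sham) served only for comparison. Each array held RNA from 1 whole node of 1 rat, stored in RNAlater before extraction, so in these bulk samples fewer cells of a type and less RNA per cell cannot be told apart.

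A lymph node filters the lymph of its region through B cell follicles, a T cell zone, and sinuses lined by macrophages, all held on a scaffold of fibroblastic reticular cells. Plasma cells, which secrete antibody and rely on a large endoplasmic reticulum, gather in the medulla. Cells of the node also run a circadian clock, in which the transcription factors BMAL1 and CLOCK bind E-boxes in their target genes, the PER and CRY proteins repress BMAL1 and CLOCK, and the receptors REV-ERBα and RORα repress and activate Bmal1 through a shared response element.

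Of 34 gene lists, the clock list had the greatest share of its measured members called higher, at 56.2%, barely above endoplasmic reticulum folding at 56%. Its gene starts are shown because the promoter search was set on this list by name, with earlier results of these data known. RefSeq promoters of 300 bases (250 before the start and 50 from it; GRCr8) were given for 15 of the 16 measured clock genes. The E-box CACGTG, which reads the same on both strands, was in promoters of 5 clock genes (Bhlhe41, Ciart, Tef, Bhlhe40 and Nr1d1), against 6.42% of all 33469 promoters of that table. All 5 were among the 9 clock genes called higher, and 0 of the 6 other clock genes with a promoter had it. Dbp, Per2, Per3 and Rora were called higher without this E-box in their 300 bases. The list holds genes of a loop that runs through E-boxes, so the share of all promoters is no independent yardstick for it. Whether the E-box bears on the calls was not tested. The REV-ERB and ROR element was searched on both strands as TAGGTCA (in 2.63% of all promoters) and TGGGTCA (4.09%), and among the clock genes only the promoter of Bmal1, the clock gene called lower, held either form. A match describes letters and shows no binding. Below are 3 promoters with the E-box, of Bhlhe41 (chr4:180569306-180569605, minus strand), Ciart (chr2:186112197-186112496, minus strand) and Tef (chr7:115206577-115206876, plus strand), and that of Bmal1 (chr1:176766078-176766377, plus strand), each written 5′ to 3′ with the matched letters in capitals.
Bhlhe41: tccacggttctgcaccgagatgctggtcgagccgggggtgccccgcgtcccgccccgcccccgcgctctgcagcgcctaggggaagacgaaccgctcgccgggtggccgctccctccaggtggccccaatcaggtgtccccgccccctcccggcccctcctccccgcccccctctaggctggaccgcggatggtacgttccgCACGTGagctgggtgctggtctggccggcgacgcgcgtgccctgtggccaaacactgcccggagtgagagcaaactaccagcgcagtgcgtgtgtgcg
Ciart: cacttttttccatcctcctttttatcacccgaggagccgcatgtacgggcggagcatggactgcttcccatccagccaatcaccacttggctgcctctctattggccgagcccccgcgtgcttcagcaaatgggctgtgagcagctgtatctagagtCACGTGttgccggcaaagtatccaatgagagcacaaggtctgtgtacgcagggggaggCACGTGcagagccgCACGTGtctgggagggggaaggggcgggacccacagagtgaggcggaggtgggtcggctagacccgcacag
Tef: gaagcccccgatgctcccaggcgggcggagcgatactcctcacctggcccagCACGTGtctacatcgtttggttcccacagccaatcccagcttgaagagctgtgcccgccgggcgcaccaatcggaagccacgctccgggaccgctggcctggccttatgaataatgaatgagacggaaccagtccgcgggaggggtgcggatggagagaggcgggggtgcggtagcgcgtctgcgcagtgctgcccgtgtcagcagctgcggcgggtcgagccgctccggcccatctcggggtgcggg
Bmal1: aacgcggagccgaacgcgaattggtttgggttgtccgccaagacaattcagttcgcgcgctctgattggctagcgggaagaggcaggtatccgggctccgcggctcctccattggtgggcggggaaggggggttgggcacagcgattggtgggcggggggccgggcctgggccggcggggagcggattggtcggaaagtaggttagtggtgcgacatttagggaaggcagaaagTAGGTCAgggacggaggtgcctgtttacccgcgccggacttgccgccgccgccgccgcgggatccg
In Ciart the 3 E-boxes began 93, 35 and 21 bases before the start, in Bhlhe41 48 bases before it and in Tef 198 bases before it. The element of Bmal1 began 16 bases before its start.

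The deposited values were log2 expression values, with a median of 5.76 over all node arrays. Genes that mark a lymph node were high in both groups: the B cell gene Ms4a1 had medians of 11.35 in contralateral and 11.44 in sham nodes, the T cell gene Cd3e 10.25 and 10.40, and the lymph vessel and reticular cell chemokine gene Ccl21 12.15 and 12.30. None of these 3 differed between the groups past the threshold used throughout, an adjusted p under 0.05 in limma over all 36685 probe sets. Each contralateral array correlated with the rest of its group at 0.992 to 0.994 and each sham array at 0.993 to 0.994, except C2 (0.984) and C9 (0.965). With weights estimated per array, C2 had 0.422 and C9 0.123. Relative to the 8 other sham arrays, C9 had lower means over the B cell (−0.67), mast cell and eosinophil (−0.55), macrophage (−0.47) and interferon lists (−0.47). It was also lower over the haem and iron (−0.46), cell cycle (−0.45), germinal centre and plasma cell (−0.41) and clock lists (−0.40). C2 was lower over immediate early (−0.36), matrix (−0.34) and T cell genes (−0.30) and higher over B cell genes (0.24). Results that rest on these arrays are therefore also given without them.

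Fat genes moved with the groups. The mean log2 value over the 25 measured adipocyte genes ran from 7.74 through a median of 7.90 to 8.35 in contralateral nodes, against 6.90, 7.32 and 8.19 in sham nodes. Of the 9 sham arrays, 8 lay below every contralateral array, and the highest sham array was C8. Of the defining fat markers, Adipoq, which encodes adiponectin, ran from 9.75 to 10.65 in contralateral nodes and from 7.67 to 10.62 in sham nodes. Cidec, a lipid droplet protein gene, ran from 7.91 to 8.95 and from 5.81 to 8.19. The sham median of another marker, Lep (5.39), lay below the median of all node values (5.76), so not every marker was well above background in every array. No muscle or red cell gene was called, with medians of −0.03 and 0 over their lists, although the haemoglobin gene Hba-a1 differed by 0.69 (5.68 to 7.71 in contralateral and 4.57 to 6.49 in sham nodes, adjusted p = 0.09728). Differences are therefore also given with the mean of the adipocyte genes as a covariate.

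Against sham, the contralateral node had higher levels of many clock genes, plasma cell and endoplasmic reticulum genes, macrophage, complement and acute phase genes, and fat genes, and a lower level of Bmal1. Of 36685 probe sets, 1844 were called, which is 5.03%, with 813 higher and 1031 lower in contralateral nodes. The split depended on scaling: centring each array on its median gave 1052 higher and 442 lower, and quantile normalization 1040 higher and 932 lower. The differences were mostly small, with a median size of 0.35 on the log2 scale, and a change of 2-fold or more was reached by 53 higher and 3 lower probe sets. Among 18166 genes, each taken at 1 probe set, 3.72% were called higher and 3.03% lower, the background against which the gene groups below are read, and the median difference was −0.005. The groups did not overlap at all in 78 called genes, or 0.429%.

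The counts rested on few arrays and on the fat gene level. Without C2 and C9, 1063 probe sets were called (396 higher and 667 lower), of which 826 were among the 1844. Without C2 alone the count was 941, without K11 1195 and without K4 1213, while without C9 it was 2378. With the fat gene mean as a covariate, 35 probe sets were called (27 higher and 8 lower), all of them also called without it. Over all probe sets the covariate multiplied the standard error by a median of 1.213, and over the called ones it multiplied the difference by a median of 0.844.

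**Figure D1:**
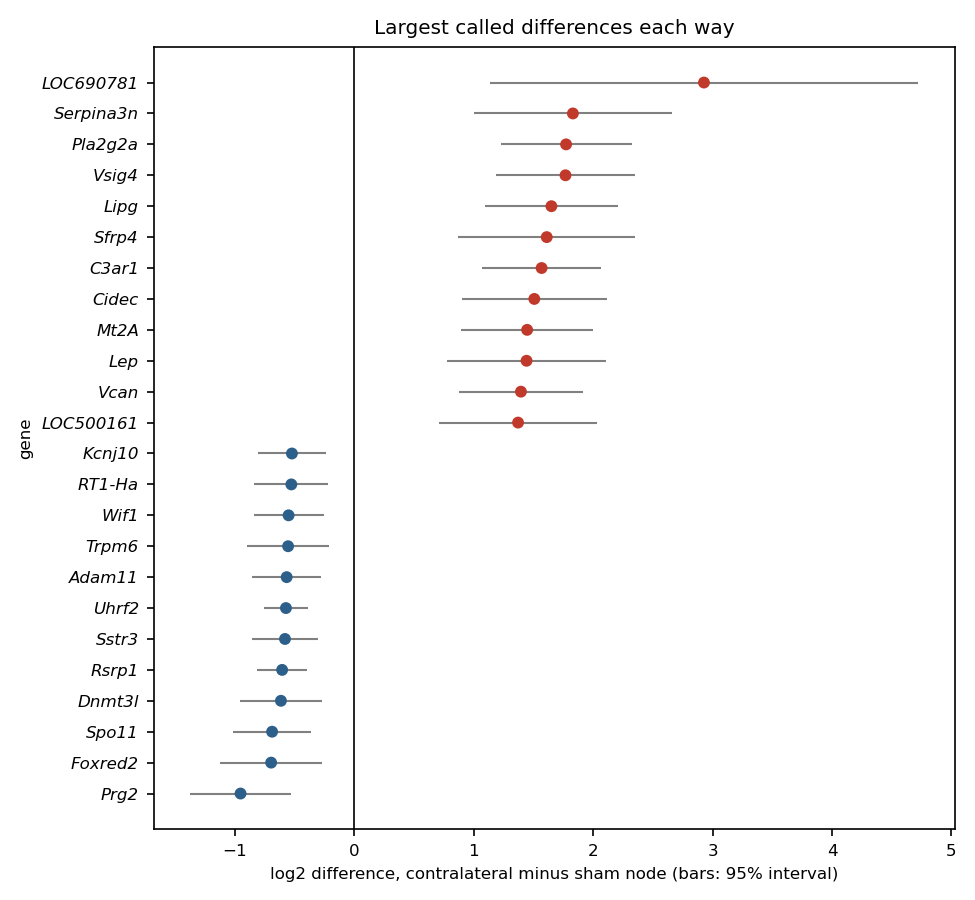
Points give the log2 difference between contralateral and sham nodes (11 against 9 arrays) and bars its 95% interval, for the 12 largest called differences each way among genes whose higher group mean exceeds the median of all node values, ordered from the highest (top) to the lowest. The increases run to 2.93 in LOC690781, with a wide interval, whereas the largest decrease is −0.95 in Prg2.

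Most measured clock genes were higher in contralateral nodes, and Bmal1 was lower. Of the 16 measured members 9 were called higher (56.2%, against 3.72% of all genes) and 1 lower, with a median difference of 0.34 over the list. Bhlhe41, a repressor of BMAL1 and CLOCK also known as DEC2, ran from 7.06 through 7.47 to 7.79 in contralateral nodes and from 6.37 through 6.60 to 7.11 in sham nodes. All but 1 of the contralateral arrays lay above every sham array (10 of 11), a 1.72-fold difference (log2 0.79 ± 0.09 SE, adjusted p = 1.954e-05). This call held in every alternative fit, and with the fat covariate the difference was 0.77 (adjusted p = 0.002547).

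Among the core repressors, Nr1d1, which encodes REV-ERBα, ran from 9.60 through 10.18 to 10.58 in contralateral and from 8.81 through 9.41 to 9.66 in sham nodes (0.76 ± 0.16, 1.69-fold, adjusted p = 0.006545), with 10 of 11 contralateral arrays above every sham array. Ciart, which encodes the repressor CHRONO, ran from 5.90 through 6.37 to 6.74 against 5.27 through 5.93 to 6.09 in sham nodes (0.49 ± 0.11, adjusted p = 0.009987), so that the groups overlapped, and 9 of 11 contralateral arrays exceeded all of sham. Bhlhe40, the partner of Bhlhe41, differed by 0.47 ± 0.12 (adjusted p = 0.01679). The period genes Per2 (0.36 ± 0.09, adjusted p = 0.01804) and Per3 (0.38 ± 0.11, adjusted p = 0.04135) were higher, but the call for Per3 was lost when any of 13 of the 20 arrays was left out in turn. Per1 differed by 0.31 ± 0.12 and was not called (adjusted p = 0.1522).

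Of the output factors that bind D-boxes, Dbp ran from 10.40 through 11.00 to 11.38 in contralateral nodes and from 9.48 through 10.27 to 10.53 in sham nodes. It was 1.68-fold higher (0.75 ± 0.15, adjusted p = 0.004448), and 10 of 11 contralateral arrays lay above every sham array. Tef, of the same family, differed by 0.49 ± 0.12 (adjusted p = 0.01683). Rora, the activator of Bmal1, was higher by 0.33 ± 0.08 (adjusted p = 0.0192). Nfil3, which opposes the D-box activators, was at −0.31 ± 0.12 and not called (adjusted p = 0.1285).

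On the opposite arm, Bmal1 ran from 8.09 through 8.30 to 8.71 in contralateral nodes and from 8.55 through 8.78 to 8.95 in sham nodes. It was 1.37-fold lower (−0.46 ± 0.08, adjusted p = 0.001091), and 10 of 11 contralateral arrays lay below every sham array. Npas2, a paralogue of Clock, was at −0.31 ± 0.12 without a call (adjusted p = 0.1299). Clock, Cry1 and Cry2 were at 0.05, −0.11 and −0.05, with adjusted p from 0.3697 to 0.8352, and the sign for Clock turned to −0.08 without C9, in which it was at 8.66 against a sham median of 9.76. Nr1d2 and Hlf had no probe set with a single symbol and were not measured.

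Without C2 and C9, 6 of the 9 higher clock genes stayed called, and Tef (0.43, adjusted p = 0.0674), Per3 (0.41, 0.05422) and Rora (0.28, 0.06022) did not, at differences close to those with all arrays. The lower C9 values of Dbp (9.48), Ciart (5.27) and Bhlhe40 (9.12) stand apart in the plot of clock genes by array. With the fat covariate the median over the clock list was 0.27, and only Bhlhe41 stayed called, with Bmal1 at −0.36 (adjusted p = 0.08394) and Dbp at 0.68 (0.1189). Of 17 known clock output genes outside the core loop, 3 were called higher (17.6%) and 0 lower. They were Tspan4 (0.43), Cdkn1a (0.40) and Por, the electron donor of cytochrome P450 enzymes (0.35). The count was 2 without C2 and C9, where Cdkn1a was at 0.25 (adjusted p = 0.05966), and 0 with the fat covariate.

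**Figure D2:**
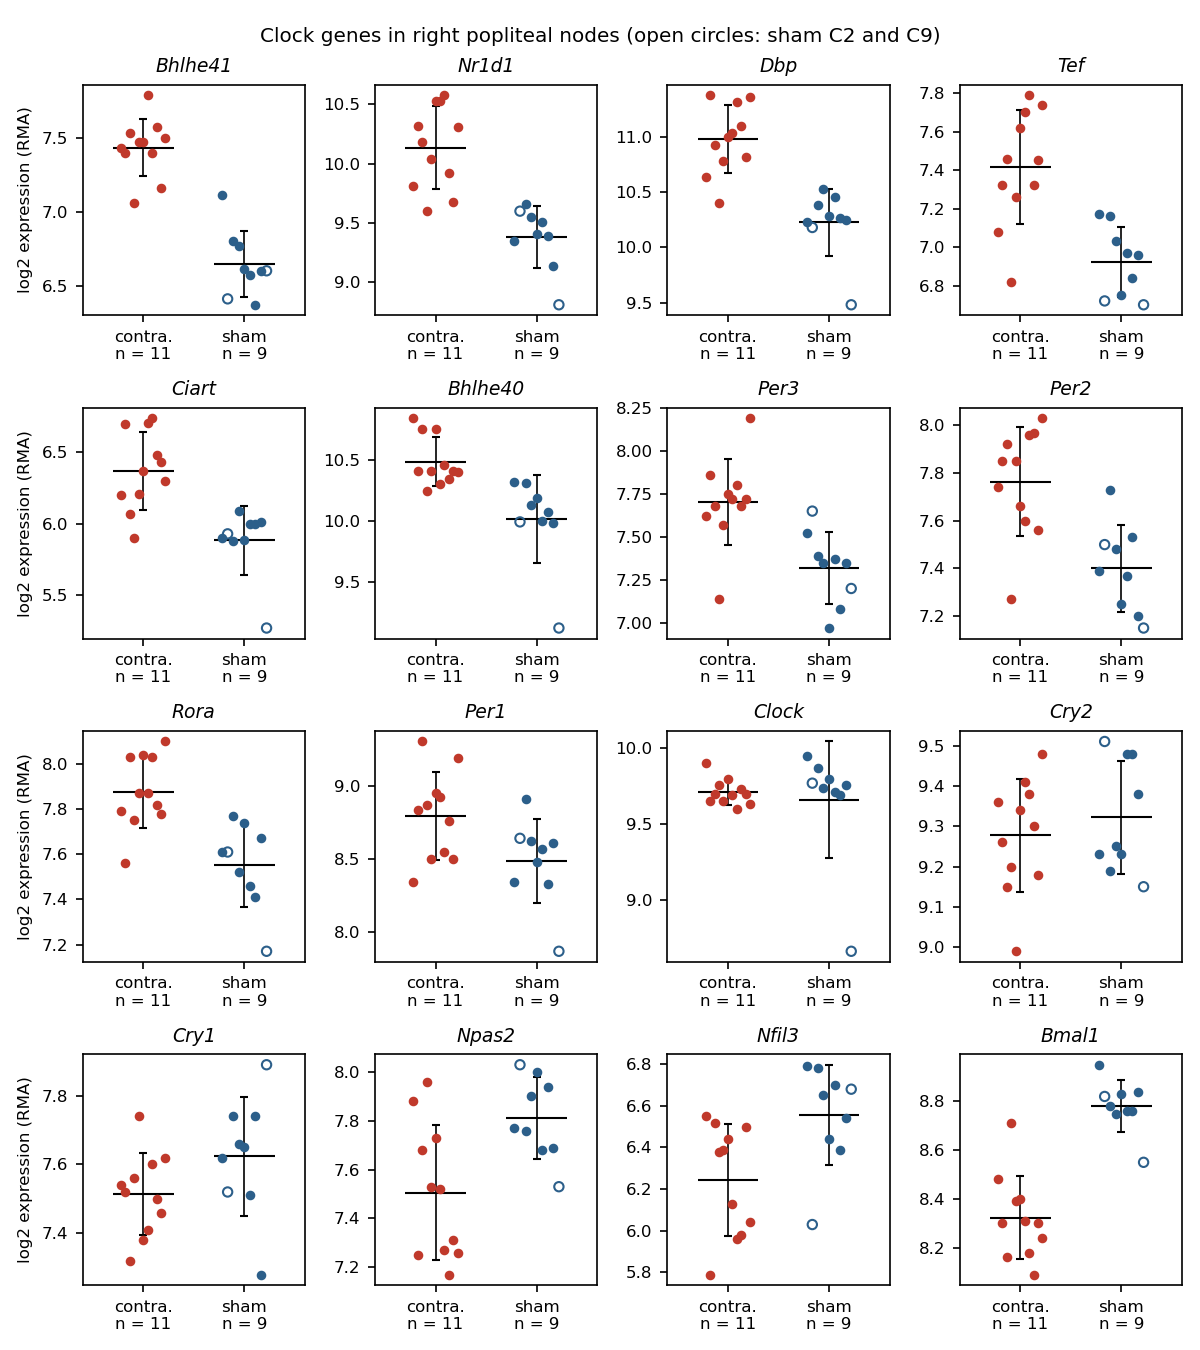
Each point is the log2 expression value of 1 array, for the 16 measured clock genes in contralateral nodes (left, n = 11) and sham nodes (right, n = 9), with the mean and SD as black lines and C2 and C9 as open circles. Bhlhe41, Nr1d1 and Dbp sit higher and Bmal1 lower in contralateral nodes, and C9 lies below the other sham arrays in Dbp, Ciart, Bhlhe40 and Clock.

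Many antibody-secreting cell genes were higher. Of 19 measured germinal centre and plasma cell genes 9 were called higher and 0 lower (47.4%), with a median of 0.53. Fkbp11, a prolyl isomerase gene of the secretory pathway, ran from 8.45 through 8.87 to 9.63 in contralateral nodes and from 7.43 through 7.82 to 7.99 in sham nodes, without overlap (1.07 ± 0.16, 2.10-fold, adjusted p = 0.000395). Sdc1, which encodes the plasma cell surface marker CD138, ran from 8.16 through 8.72 to 9.09 against 7.59 through 7.98 to 8.23 in sham nodes, with a slight overlap (0.75 ± 0.12, adjusted p = 0.0004607). Mzb1, a chaperone gene of antibody assembly, was higher by 0.93 ± 0.23 (adjusted p = 0.01477), and in 9 of 11 contralateral arrays it exceeded every sham array.

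The antibody joining chain gene Jchain (0.68), the plasma cell regulator genes Prdm1 (0.75) and Xbp1 (0.64) and the degradation factor gene Derl3 (0.83) were called as well. Creld2 (0.57), Tnfrsf17 (0.47), Irf4 (0.215) and Pim2 (0.12), of the same list, were not called (adjusted p from 0.06221 to 0.6681). Bcl6, the master regulator gene of germinal centre B cells, was at −0.15 and not called (adjusted p = 0.2478). The count stayed at 9 without C2 and C9, and with the fat covariate the median was 0.55 with 2 calls, Fkbp11 and Sdc1 (1.05 and 0.77). K3 had the highest mean of this list, 9.08 in its contralateral node, against 8.01 to 8.70 in the other contralateral arrays, and also the highest mean of the cell cycle list (8.06).

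Folding factors of the endoplasmic reticulum went the same way, with 14 of 25 called higher and 0 lower (56.0%), a median of 0.30, and 10 calls without C2 and C9. Sdf2l1, a chaperone cofactor gene, was higher by 0.64 ± 0.15 (adjusted p = 0.0134) and Pdia4, a disulphide isomerase gene, by 0.49 ± 0.10 (adjusted p = 0.005484), with 10 of 11 contralateral arrays of Pdia4 above every sham array. Xbp1 belongs to this list as well as to the plasma cell list. Ddit3 and Atf4, stress-response factors of the same organelle, were at −0.21 and −0.06 and were not called. With the fat covariate the median was 0.28, and 0 members were called, against 14 without it, while the limma fit with the covariate called 35 probe sets in all.

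Macrophage genes were higher in part. Of 25 measured monocyte and macrophage genes 7 were called higher and 0 lower (28.0%), with a median of 0.22. Vsig4, which encodes a receptor for complement fragments on tissue macrophages, ran from 7.66 through 8.38 to 9.22 in contralateral nodes and from 5.29 through 6.90 to 7.62 in sham nodes, a 3.41-fold difference without overlap (1.77 ± 0.29, adjusted p = 0.0008042). Cd163, the haemoglobin scavenger receptor gene, ran from 8.96 through 9.93 to 10.93 against 8.31 through 8.66 to 8.82 in sham nodes, again without overlap (1.27 ± 0.29, 2.41-fold, adjusted p = 0.01082). Ccr2, the receptor gene of inflammatory monocytes, was higher by 1.20 ± 0.22 (adjusted p = 0.002388), and its sham range of 7.25 to 9.97 was stretched by C9, the lowest array.

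Siglec1 and Timd4, genes of sinus and resident macrophages, were at −0.23 and −0.60 and were not called. The count of 7 fell to 3 without C2 and C9, and to 4 without any of K7, K8, K11 or C2. With the fat covariate it was 0 and the median 0.11, with Vsig4 at 1.30 (adjusted p = 0.08236) and Cd163 at 0.99 (0.256). The fat gene mean, 7.74 to 8.35 in contralateral and 6.90 to 8.19 in sham nodes, was higher along with these genes, and beyond the covariate fit its part in the result was not tested.

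Complement genes of the classical and alternative pathways were higher, and of 5 calls 4 held with the adipocyte mean as a covariate and 2 with the mean of 5 fat markers. C3ar1, which encodes the C3a receptor, ran from 6.76 through 7.66 to 8.65 in contralateral nodes and from 5.25 through 6.05 to 6.51 in sham nodes, without overlap (1.57 ± 0.24, 2.97-fold, adjusted p = 0.0005129). Cfb, encoding the alternative pathway protease factor B, ran from 7.88 through 8.25 to 8.53 against 6.87 through 7.28 to 7.72 in sham nodes, also without overlap (0.89 ± 0.13, adjusted p = 0.000395). Serping1, the C1 inhibitor gene, was higher by 0.52 ± 0.08 (adjusted p = 0.0005129), and C1r and C1s, the proteases of the C1 complex, by 0.40 and 0.35. Of 15 complement genes 5 were called higher and 0 lower (33.3%), all 5 also without C2 and C9. With the fat covariate C3ar1 was at 1.43, Cfb at 0.75, Serping1 at 0.47 (adjusted p = 0.04388 for each) and C1r at 0.37. With the 5 markers C3ar1 was at 1.42 (adjusted p = 0.05171) and Cfb at 0.74 (0.054), and neither was called.

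**Figure D3:**
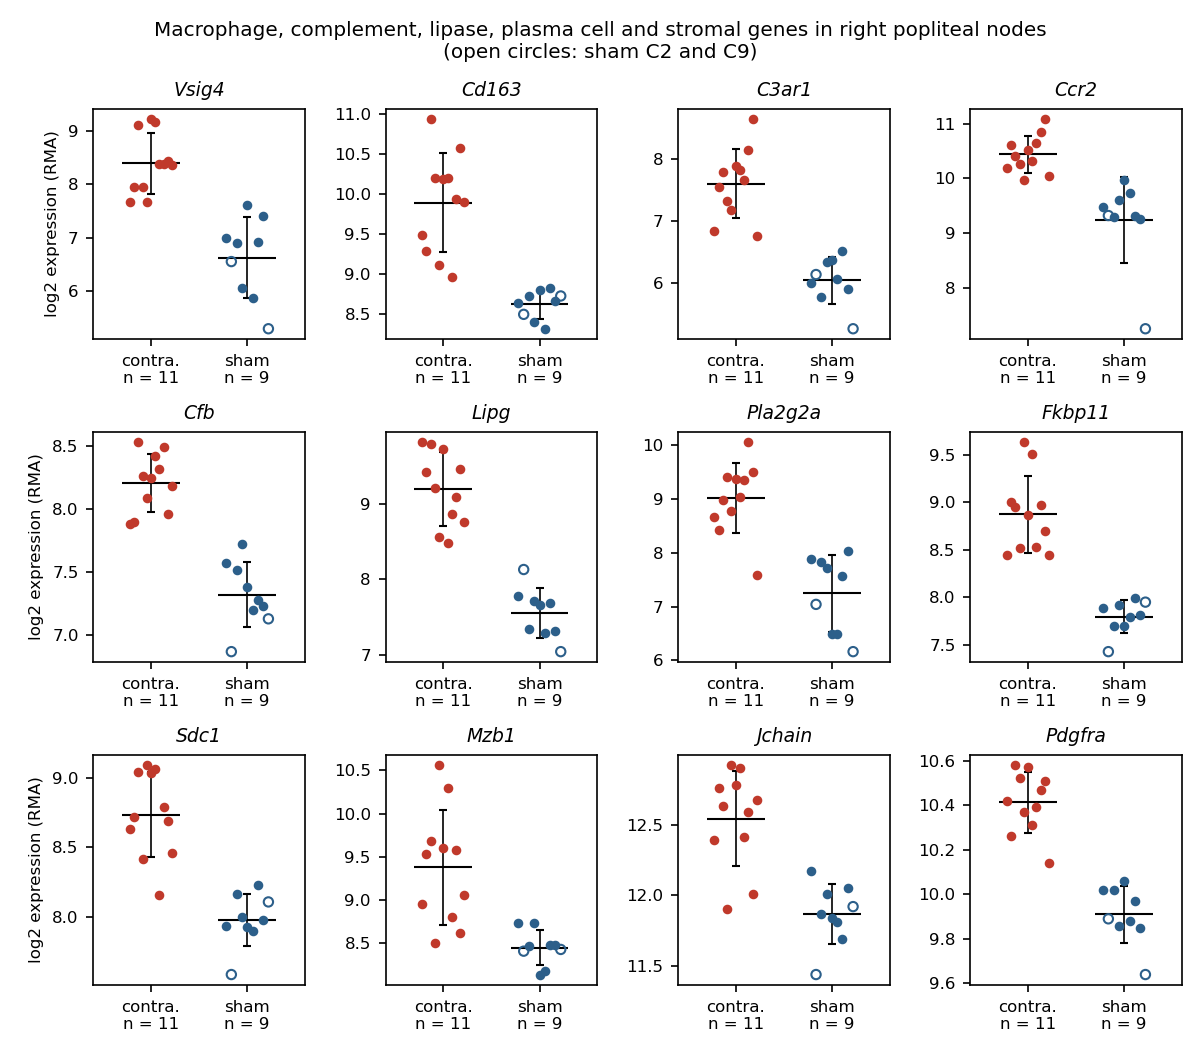
Each point is the log2 expression value of 1 array in contralateral nodes (left, n = 11) and sham nodes (right, n = 9), with the mean and SD as black lines and C2 and C9 as open circles. Vsig4, Cd163, C3ar1, Cfb, Lipg, Fkbp11 and Pdgfra show no overlap between the groups, and in Ccr2 the sham array C9 (7.25) lies far below the rest.

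Acute phase genes and metallothioneins were higher in 8 of 19 measured members and lower in 0 (42.1%; median 0.31). Serpina3n, a protease inhibitor gene of a large gene family, ran from 9.74 through 11.15 to 12.10 in contralateral nodes and from 7.97 through 9.37 to 11.19 in sham nodes, so that only 5 of 11 contralateral arrays exceeded all of sham (1.83 ± 0.41, 3.56-fold, adjusted p = 0.009195). Mt2A, a metal-binding metallothionein gene, was 2.73-fold higher (1.45 ± 0.27, adjusted p = 0.00286), with 10.79 to 12.79 in contralateral and 9.84 to 11.15 in sham nodes, and its other probe set differed by 1.71. Timp1, the inhibitor gene of matrix metalloproteinases, did not overlap, with 9.22 to 10.98 against 7.81 to 8.88 in sham nodes (1.30 ± 0.25, adjusted p = 0.003393). Hp, the haptoglobin gene, was at −0.08 and not called. Calls numbered 5 without C2 and C9, likewise 5 without C2 alone, and 1 with the covariate (Cfb), where Serpina3n was at 1.05 (adjusted p = 0.3398) and Mt2A at 1.23 (0.1181). The median over the list was 0.34 without C2 and C9 and 0.36 with the covariate.

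Glucocorticoid-responsive genes share Mt1, Mt2A and Lcn2 with this list, and 8 of 22 were called higher and 0 lower (36.4%; median 0.32). Dusp1, a phosphatase gene that restrains MAP kinases, ran from 9.28 through 9.91 to 10.44 in contralateral nodes and from 7.56 through 8.91 to 10.40 in sham nodes, where all but 1 contralateral array lay within the sham range (0.81 ± 0.22, adjusted p = 0.03241). The count fell to 3 without C2 and C9, to 4 or 5 without any of K3, K4, K7, K8, K11, C2 or C6, and to 0 with the covariate. Nr3c1, the receptor gene itself, was at −0.06, and Tsc22d3, a classical target, at 0.39 without a call (adjusted p = 0.1). Fkbp5 (0.11), Zbtb16 (0.09), Klf9 (0.16) and Pdk4 (0.11), also on the list, were not called (adjusted p from 0.4101 to 0.9112). Immediate early genes were called in 3 of 22 (Dusp1, Zfp36 and Ier3; 13.6%), between 1 and 5 when any of 8 single arrays was left out, and 0 without C2 and C9, where limma called 1063 probe sets in all.

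Chemokine genes were higher in 7 of 33 and lower in 0 (21.2%; median 0.18), and interferon-stimulated genes in 7 of 32 and 0 (21.9%; median 0.28). Cxcl14, a chemokine gene of epithelium and stroma, ran from 8.11 through 8.57 to 9.03 in contralateral nodes and from 6.80 through 7.43 to 7.72 in sham nodes, without overlap (1.28 ± 0.21, 2.43-fold, adjusted p = 0.0008867). Ccl9, a monocyte-attracting chemokine gene, differed by 0.77 ± 0.17 (adjusted p = 0.007629) and Ccl5, a chemokine gene of T and NK cells, by 0.60 ± 0.13 (adjusted p = 0.006085). Cxcl9 and Cxcl10, interferon-induced ligands of the receptor CXCR3, stand in both lists and were higher by 0.83 ± 0.19 (adjusted p = 0.01082) and 0.75 ± 0.17 (0.01246).

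The chemokine count was 6 without C2 and C9, and the interferon count 3. Leaving out C7 gave 4 interferon calls and leaving out C1, the sham array with the highest mean of that list (8.32), gave 11. With the fat covariate no chemokine or interferon member was called, though the interferon median was 0.34 and Cxcl9 stood at 0.94 (adjusted p = 0.08236). With the mean of 5 fat markers Cxcl9 was called, at 1.08 (adjusted p = 0.04886). Proinflammatory cytokine genes were called higher in 2 of 22 (Il33 at 0.55 and the B cell survival factor gene Tnfsf13b at 0.43) and lower in 1, the lymphotoxin gene Lta (−0.42), whose call was lost without any of 15 single arrays. The classical cytokine genes Il1b (0.30), Il6 (0.49) and Tnf (−0.26) were not called.

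Of 24 genes that Nfe2l2 or oxidative stress induces, 6 were called higher and 0 lower (25.0%; median 0.19). Gsta1, a glutathione transferase gene, ran from 6.81 through 7.68 to 8.21 in contralateral nodes and from 5.76 through 6.62 to 6.78 in sham nodes, without overlap (1.11 ± 0.16, 2.16-fold, adjusted p = 0.000395), and stayed called with the adipocyte covariate (0.93, adjusted p = 0.04388) but not with the 5 markers (0.88, 0.05746). Nqo1, a quinone reductase gene, did not overlap either (0.68 ± 0.17, adjusted p = 0.02182), but its contralateral minimum of 6.46 lay just above the sham maximum of 6.44. Sod3, the extracellular superoxide dismutase gene, differed by 0.82 ± 0.16 and, with the covariate, by 0.37 (adjusted p = 0.2685). The count was 5 without C2 and C9.

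Haem and iron genes were called higher in 6 of 22 and lower in 0 (27.3%; median 0.21). Besides Cd163, these included Slc11a1, the phagosomal metal transporter gene (1.26 ± 0.34, adjusted p = 0.02691), and Lrp1, the haemopexin receptor gene (0.79 ± 0.15, adjusted p = 0.002629). Slc11a1 ran from 7.47 to 9.72 in contralateral and from 6.06 to 8.17 in sham nodes, and its call was lost without K8, K11 or C2. Hmox1, which encodes the haem-degrading enzyme, differed by 1.21 ± 0.41 but was not called (adjusted p = 0.08307). Calls numbered 3 without C2 and C9 and 0 with the covariate, while the median over the list was 0.19 and 0.27 in these fits.

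Stromal genes were higher to a modest degree. Pdgfra, a receptor gene of fibroblastic cells, ran from 10.14 through 10.42 to 10.58 in contralateral nodes and from 9.64 through 9.89 to 10.06 in sham nodes, without overlap (0.50 ± 0.07, adjusted p = 0.0001648), and held with the covariate (0.48, adjusted p = 0.01312). Pdpn, the podoplanin gene of reticular cells, differed by 0.56 ± 0.10 (adjusted p = 0.002152). Of 23 node stroma and vessel genes 4 were called higher (17.4%), 2 without C2 and C9. Extracellular matrix genes gave 5 of 26 (19.2%), led by Aspn (0.62) and Fbln1 (0.56), and follicular dendritic cell genes 3 of 12 (25.0%; Tnfrsf1a, Icam1 and Mfge8 at 0.25 to 0.39). These counts fell to 2 and 0 without C2 and C9, and any of 11 single arrays took the matrix count to 2 or 3. With the covariate 0 matrix and 0 follicular dendritic cell genes were called in limma, of 35 probe sets in all, and the matrix median was 0.05, against 0.18 without it. Pdpn was then at 0.50 (adjusted p = 0.08236) and Aspn at 0.26 (0.6154).

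**Figure D4:**
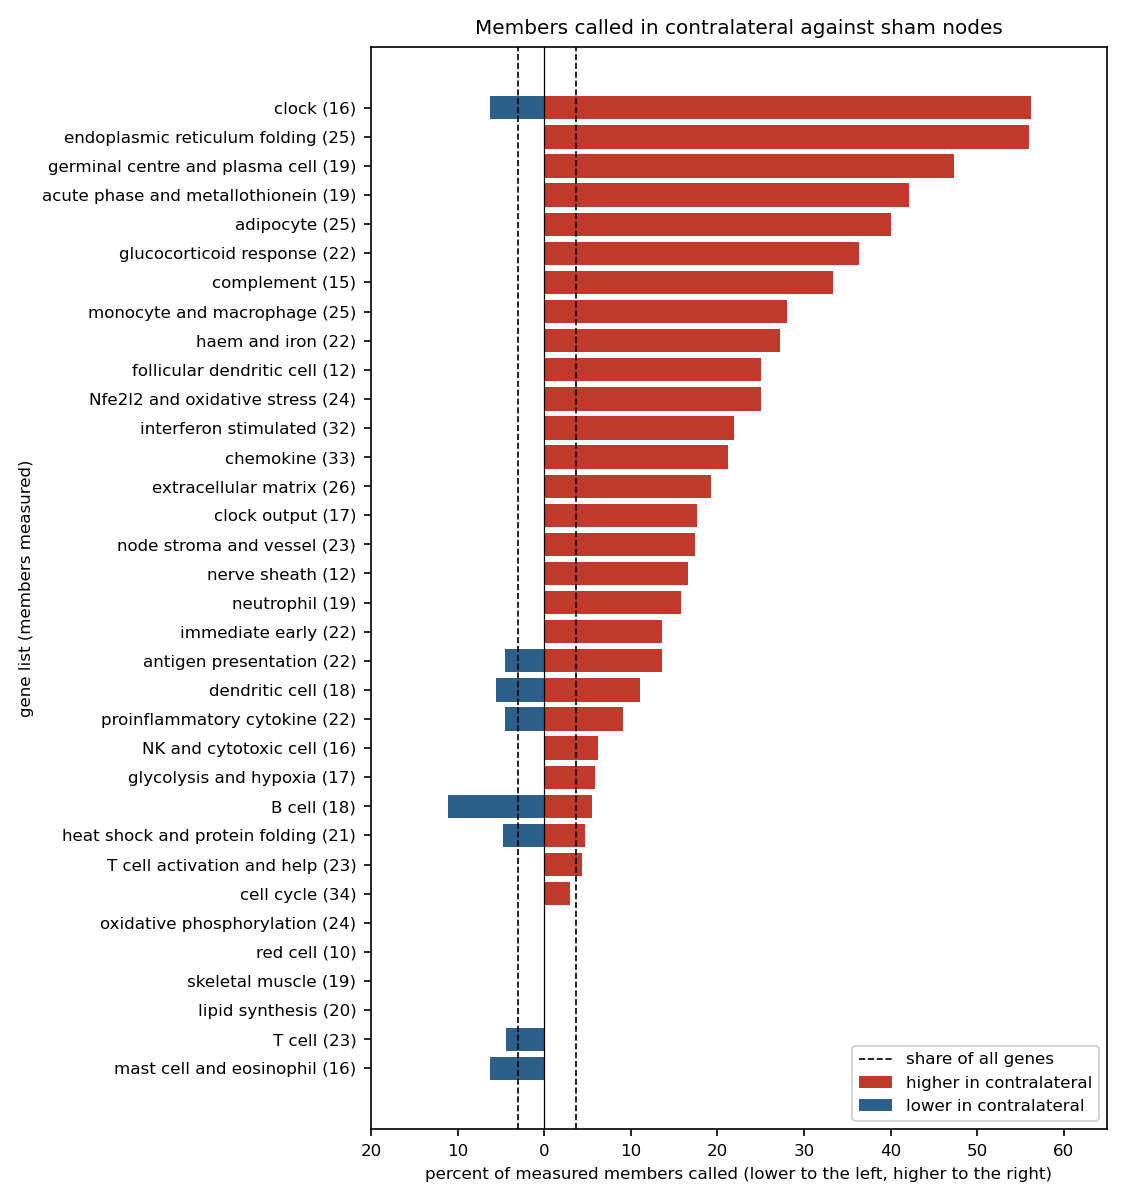
Bars give the percent of measured members of each of 34 gene lists called higher (right) or lower (left) in contralateral against sham nodes, with the number measured in brackets. Dashed lines mark the share of all genes called, 3.72% higher and 3.03% lower, and the clock and endoplasmic reticulum folding lists reach 56.2% and 56.0% higher.

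Calls among lymphocyte genes are read against 3.72% of all genes called higher and 3.03% lower. Of 18 B cell genes 1 was called higher (5.56%), the coactivator gene Pou2af1 (0.47 ± 0.11). Cd72 (−0.37 ± 0.09) and Cd40 (−0.28 ± 0.08) were called lower, 2 of 18, a larger share than among all genes. The median over the B cell list was −0.06, and 0.02 with the fat covariate. C2 held the highest sham value of Cd40 (9.61) and of Cd72 (10.89), and without C2 and C9 Cd40 was at −0.22 (adjusted p = 0.1343). Leaving out single arrays took the count of lower B cell genes to between 1 and 4, and the call for Cd40 was lost without any of 15 arrays. Of 23 T cell genes 1 was called, the signalling adaptor gene Lat (−0.33 ± 0.09, adjusted p = 0.02683), with a median of −0.15 (−0.10 with the covariate), and that call was lost without C2 or K4. T cell activation genes gave 1 of 23 higher (4.35%, Ctla4 at 0.45) and NK genes 1 of 16 (6.25%, Ccl5), both near the share of all genes.

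Among antigen presentation genes, Lgmn, a lysosomal protease gene, was higher without overlap (10.59 to 11.58 in contralateral and 10.01 to 10.52 in sham nodes; 0.78 ± 0.16, adjusted p = 0.004666). Ciita, the activator gene of class II transcription, was lower (−0.36 ± 0.09, adjusted p = 0.01502), with 10 of 11 contralateral arrays below all of sham. Dendritic cell genes gave Clec10a (0.71) and Itgax (0.36) higher and the maturation marker gene Cd83 (−0.23) lower, of 18. Neutrophil genes gave 3 of 19 higher (15.8%), Trem1, Lcn2 and Il1r2 at 0.40 to 0.72, with 0 left without C2 and C9, where limma called 1063 probe sets in all. Of the same list, S100a8 (0.34), S100a9 (0.31), Csf3r (0.25), Cxcr2 (0.27) and Mpo (0.39) were not called. Retnlg, at −0.81, was not called either.

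Cell cycle genes were called in 1 of 34 (Tyms, 0.33), near the 3.72% background, although 30 of the 34 differences were above 0 and the median was 0.16. The call was lost without any of 11 single arrays. The proliferation marker gene Mki67 was at 0.19 ± 0.21. Heat shock genes gave Hspb1 higher (0.61) and Chordc1 lower (−0.23), of 21, nerve sheath genes S100b (0.65) and Pmp22 (0.43), of 12, and glycolysis and hypoxia genes Pfkfb3 (0.20), of 17. S100b and Pmp22 were at 0.23 and 0.14 with the fat covariate (adjusted p = 0.6189 and 0.5606), and neither was called without C2 and C9 (0.09097 and 0.06775). In limma no member was called either way among 20 lipid synthesis genes, 19 muscle genes, 10 red cell genes and 24 oxidative phosphorylation genes, where the fit called 1844 probe sets in all and 7245 had an unadjusted p under 0.05.

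Several of the largest increases belonged to no single group. Pla2g2a, a secreted phospholipase gene, ran from 7.58 through 9.04 to 10.06 in contralateral nodes and from 6.16 through 7.57 to 8.04 in sham nodes (1.77 ± 0.27, 3.42-fold, adjusted p = 0.0004556), with 10 of 11 contralateral arrays above every sham array. Lipg, the endothelial lipase gene, ran from 8.48 through 9.21 to 9.82 against 7.04 through 7.66 to 8.13 in sham nodes, without overlap (1.65 ± 0.27, 3.14-fold, adjusted p = 0.0009069). Lipg was called in every alternative fit, and with the fat covariate it was at 1.79 (adjusted p = 0.02947). Vcan, the proteoglycan versican gene, ran from 7.46 to 8.72 in contralateral and from 5.79 to 7.56 in sham nodes (2.63-fold, adjusted p = 0.002323). Sfrp4, encoding a secreted Wnt inhibitor, differed by 1.61 ± 0.36 (adjusted p = 0.009938). Its sham mean of 5.20 lay below the median of all node values (5.76), so it passed the level filter only through contralateral nodes. With the fat covariate Pla2g2a was at 1.44 (adjusted p = 0.05325), Vcan at 1.43 (0.05432) and Sfrp4 at 1.15 (0.2731), and none of these stayed called.

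The unnamed locus LOC690781 had the largest difference, 2.93 ± 0.88 (7.61-fold, adjusted p = 0.04731), but also the widest spread, with 5.34 to 11.91 in contralateral and 4.10 to 7.44 in sham nodes. Its call was lost when any of 14 of the 20 arrays was left out in turn. With a sham mean of 5.30, LOC690781 passed the level filter only through contralateral nodes. Without C2 and C9 it was at 2.90 and not called (adjusted p = 0.1019). LOC500161 differed by 1.37 ± 0.32 (adjusted p = 0.0131), and without C2 and C9 by 1.17 (0.06025). With the fat covariate neither was called, with LOC690781 at 2.50 (adjusted p = 0.3698) and LOC500161 at 1.43 (0.1379). No role is given for either locus here.

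Decreases were smaller. Prg2, which encodes the eosinophil granule major basic protein, ran from 6.09 through 6.81 to 7.13 in contralateral nodes and from 7.02 through 7.82 to 7.97 in sham nodes, with 10 of 11 contralateral arrays below every sham array (1.93-fold lower, −0.95 ± 0.21, adjusted p = 0.008173). It was the single call among 16 mast cell and eosinophil genes. Uhrf2, a ubiquitin ligase gene that reads modified DNA, ran from 10.20 through 10.32 to 10.70 against 10.71 through 10.95 to 11.38 in sham nodes, the only named decrease without overlap (−0.57 ± 0.09, adjusted p = 0.0005129). Rsrp1, of an arginine- and serine-rich protein, was at −0.60 ± 0.10 (adjusted p = 0.00142). The meiotic gene Spo11 (−0.69) averaged 5.147 in contralateral and 5.834 in sham nodes, so it passed the level filter only through sham, and near background an array can compress a difference.

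The somatostatin receptor gene Sstr3 (−0.58), the Wnt inhibitor gene Wif1 (−0.55), the potassium channel gene Kcnj10 (−0.52) and Adam11 (−0.57) were also called lower. Adam11 averaged 5.625 in contralateral nodes and, like Spo11, passed the level filter only through sham. Dnmt3l (−0.61) was called, and lost the call without any of K7, K8, C6 or C8. Foxred2 (−0.70), the magnesium channel gene Trpm6 (−0.55) and the histocompatibility gene RT1-Ha (−0.53), of a multigene family that shares sequence, had adjusted p of 0.04848, 0.04967 and 0.04024. Their calls were lost without any of 16, 15 and 12 single arrays. With the fat covariate none of the 12 largest decreases stayed called, in a limma fit that called 8 probe sets lower, with Uhrf2 at −0.42 (adjusted p = 0.07337) and Prg2 at −0.96 (0.1183).

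Fat genes themselves were higher in 10 of 25 measured members and lower in 0 (40.0%; median 0.61). Cidec was 2.84-fold higher (1.51 ± 0.30, adjusted p = 0.004364). Lep, the leptin gene, ran from 6.27 through 7.26 to 7.72 in contralateral nodes and from 4.60 through 5.39 to 6.82 in sham nodes (1.44 ± 0.33, adjusted p = 0.009923). Its sham mean of 5.63 lay below the median of all node values, which only its contralateral mean exceeded. Pparg, the master regulator gene of adipocytes, was higher by 1.06 ± 0.20 (adjusted p = 0.002629) and Adipoq by 0.99 ± 0.29 (0.04465), whereas Fabp4 was at 0.80 without a call (0.1004). The count was 4 without C2 and C9, and 6 without any of K4, K6, K7, K8, C1, C2, C6 or C7.

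Across the 94 named genes that were called, 8 stayed called with the fat gene mean as a covariate, 6 with the mean of 5 fat markers, and 57 without C2 and C9, and 0 changed sign in any of these fits. The 8 were Bhlhe41, Lipg, C3ar1, Gsta1, Fkbp11, Cfb, Serping1 and Pdgfra. The 6 were Bhlhe41, Lipg, Fkbp11, Serping1, Pdgfra and Cxcl9. By construction the covariate cancels the average difference over the adipocyte genes, whose median was −0.02 with it. Single members kept a difference above 0, with Cidec at 0.47, Pparg at 0.41 and Lep at 0.32. None of these was called in limma (adjusted p = 0.1511, 0.1427 and 0.4251). In the plasma cell list the median hardly moved (0.53 without the covariate and 0.55 with it), in the complement list it was 0.28 with it, against 0.35 without it, and in the macrophage list 0.11, against 0.22. How much of each difference comes with the fat in the sample was not tested beyond these fits.

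**Figure D5:**
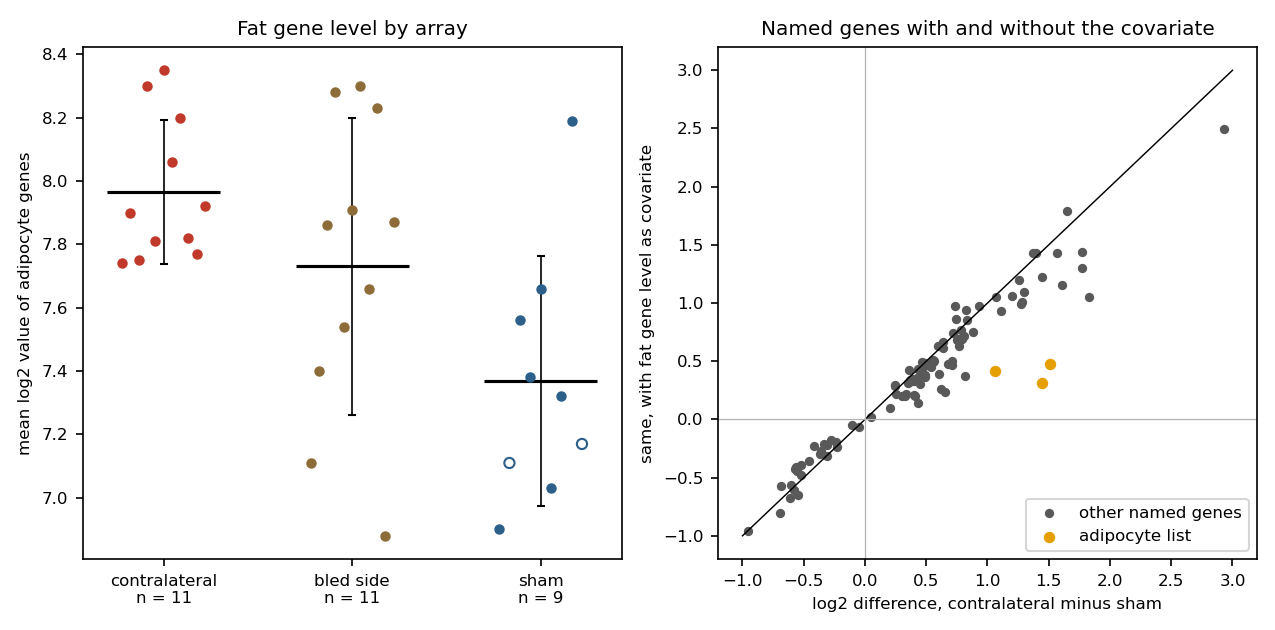
Left, the mean log2 value of 25 adipocyte genes in each array of contralateral (n = 11), bled-side (n = 11) and sham nodes (n = 9), with the mean and SD as black lines and C2 and C9 as open circles. Right, the log2 difference of each named gene between contralateral and sham nodes with the covariate (vertical) against without it (horizontal), with the line of equality, and the named adipocyte genes in orange between 0.32 and 0.47 with the covariate.

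The bled-side nodes of the same rats asked whether these levels were a matter of side. In limma 0 of 36685 probe sets (0%) were called between contralateral and bled-side nodes, 860 had an unadjusted p under 0.05, and with rat as a block the count was 0 again, with 1766 unadjusted. For every named gene the adjusted p was 0.9996 or higher, and the largest difference was 0.54, in LOC690781. Bhlhe41 differed by 0.02, Bmal1 by −0.04, Vsig4 by 0.16, Lipg by −0.10 and Cfb by −0.05 between contralateral and bled-side nodes. The adipocyte mean of bled-side nodes ran from 6.88 through 7.86 to 8.30, so it reached below the lowest sham array. Right and left, and the side of the bleed, cannot be told apart in this comparison, and a p that misses the threshold does not show that the sides are alike.

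In the right knee joints of the same rats, 666 probe sets (1.82%) were called between contralateral and sham. The node and knee values share their rats, so they are set side by side and not as independent evidence. Of the 94 named genes called in the node, 19 were also called in the knee, all in the same direction. Several clock genes differed more in the knee: Dbp differed by 2.15 in the knee and 0.75 in the node, Tef by 1.62 and 0.49, Ciart by 1.48 and 0.49, Per3 by 1.34 and 0.38, Per2 by 1.10 and 0.36, and Bmal1 by −2.02 and −0.46. Bhlhe41 (1.05 in the knee and 0.79 in the node) and Nr1d1 (0.67 and 0.76) did not differ between the tissues past the threshold, with adjusted p of 0.5761 and 0.9013.

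The difference between the tissues was itself tested as a contrast of contrasts, in which 746 probe sets (2.03%) were called, among them 22 of the 100 named genes and 8 of the 16 clock genes. Named genes outside the clock list were picked for a large node difference, which this contrast contains. Their share among its calls and their values are therefore not independent of that choice. In the clock list the node minus knee value was 1.56 ± 0.25 for Bmal1 (adjusted p = 0.0001552), 1.51 for Npas2, −1.402 for Dbp (0.0004946) and −1.13 for Tef. Outside the clock, Vcan was at 1.396 in the node and at −0.56 in the knee (difference 1.96, adjusted p = 0.0003302). Fkbp11 was at 1.07 in the node and −0.12 in the knee (adjusted p = 0.0009503), Lipg at 1.65 and 0.00 (0.007237), and C3ar1 at 1.57 and 0.32 (0.02121). Mt2A was higher in both, by 1.45 in the node and 1.09 in the knee.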

How the data were processed

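Total RNA of knees and popliteal nodes was hybridised to 1-colour Affymetrix arrays. The authors deposited 1 table of log2 values. The submitters' processing notes name RMA and Affymetrix Expression Console (version 1.4.46). RMA corrects background, scales arrays to each other and merges probes, and the sources used here do not say whether both tissues were scaled together. Values ran from 1.62 to 14.03, and the number of arrays limits the precision.

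All 31 node arrays were fitted in 3 groups with limma 3.58.1 in R 4.3.3 (lmFit and eBayes), and p-values were adjusted by Benjamini-Hochberg over 36685 probe sets. Errors after ± are standard errors. The node minus knee contrast used all 60 arrays. Of the probe sets, 18511 had 1 symbol, 575 several and 17599 none in the platform annotation. Each of 18166 genes took its probe set of highest node mean. Named were the 12 largest called differences each way whose higher group mean was above the median of all node values, up to 3 called genes per list, and the clock list. Other names were chosen after their values were seen, and the comparison and lists were chosen with earlier results of these data known. Deviations of the 2 nodes of a rat correlated at 0.121 to 0.324 (mean 0.233), which pairs contralateral with bled-side nodes but not with sham. Replicates were separate rats per the labels. No source used here gives array batch or scan date. The fit was tested on simulated data with independent noise, without outlying arrays, a shared fat level or a correlation within rats. That test therefore does not cover these features.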

Additional observations from a re-analysis of the deposited data

Results flagged for a closer look

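Of 102 measures tested over the 9 sham nodes, 19 had 1 array farther from the rest than Dixon's 95% limit for 9 arrays allows, where chance flags about 1 in 20. The array was C9 in 16 of them and C2 in 3. C9 was the lowest sham array, with a gap of 0.551 of the range in Timp1, 0.735 in Ccr2, 0.662 in Derl3, 0.667 in Dbp, 0.606 in Nqo1, 0.731 in Xbp1, 0.571 in Zfp36 and 0.5 in Pdgfra. It was also lowest in Ciart (0.744), Bhlhe40 (0.717), Ctla4 (0.561), Cdkn1a (0.516), Clock (0.798) and Bmal1 (0.5), and in its correlation with the rest of its group (0.635), and it was highest in Lat (0.548). C2 was lowest in Gsta1 (0.667) and highest in Cd40 (0.783) and Cd72 (0.565).

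For 22 named genes the contralateral minus sham difference in the node itself differed from that in the knee, by a test of the contrast of both. Those outside the clock list were named for their node difference, which that contrast contains. The node minus knee value was above 0 for Lipg (1.647), C3ar1 (1.249), Vcan (1.961), Fkbp11 (1.192), Pparg (0.934), Mzb1 (1.134), Lrp1 (0.668) and Xbp1 (0.674). It was also above 0 for Pmp22 (0.487), Cdkn1a (0.906), Clock (0.59), Npas2 (1.513) and Bmal1 (1.561). Of these, Clock, Npas2 and Bmal1 were called lower in the knee. Cdkn1a (-0.504) and Pmp22 (-0.057) were below 0 in the knee without a call. It was below 0 for Dbp (-1.402), Tef (-1.132), Ciart (-0.996), Tspan4 (-0.659), Per3 (-0.96), Per2 (-0.735), Cd72 (-0.871), Uhrf2 (-0.677) and Rsrp1 (-0.628). Adjusted p ran from 0.0001552 for Bmal1 to 0.04691 for Pmp22.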

How the results depend on the processing

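Against 1844 calls (813 higher and 1031 lower), a fit of the 20 compared arrays alone gave 1137 calls with 532 lower, median centring gave 442 lower, and leaving out C2 and C9 gave 1063 (396 and 667). The adipocyte covariate gave 35 (27 and 8), and the mean of 5 fat markers, chosen after seeing the data, 35 (25 and 10). Leaving out 1 array at a time gave 941 to 2378 calls, 456 to 950 higher and 485 to 1562 lower. The total moved by over 1.5 times without K4 (1213), K11 (1195) or C2 (941), and the lower count also without K7 (642), K8 (663), C7 (669) or C9 (1562). With rat as a replicate block there were 1958 calls (891 and 1067), all 94 named calls held, and the node minus knee count was 965, against 746 without the block.

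Leaving out dim probe sets gave 2434 calls, array weights 1977, a robust prior with an intensity trend 1979, quantile normalization 1972 and 1 probe set per gene 1631. Of the 94 named calls, 66 held in all 20 single omissions, and none changed sign in any fit. Only differences that were not called changed sign: Cry2 was at 0.009 after median centring, and Clock at -0.063 with array weights, -0.079 without C2 and C9 and, over single omissions, from -0.076 (without C9) to 0.085. Without the C2 and C9 nodes the node minus knee values of Nqo1 (-0.086), Icam1 (-0.026) and Mfge8 (-0.026) turned. The cause was not tested. Low array signal in either group limits genes such as Spo11, Aspn, Adam11, Sfrp4, Lep and LOC690781. Hour of collection, batch and fat content cannot be set apart from the groups beyond these fits.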
